A study of Mus musculus with 6 samples.

Results

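The regions described here are stretches of open chromatin at the ends of protein-coding genes that had a peak in none of the 3 Utx knockout samples and in all 3 wild-type samples. They number 547 of 75961 regions in all. The data were 6 peak lists from ATAC-seq, in which a transposase cuts and tags accessible DNA, made from lineage-depleted bone marrow cells, a preparation enriched for stem and progenitor cells. Of the 6 samples, 3 came from C57BL/6 mice that lack Utx (Utx-/-) and 3 from wild-type C57BL/6 mice (Utx +/+). No treatment is named for either genotype, and the sources used here do not give the age of the mice, the deleted exons or any driver of the deletion. Utx (gene symbol Kdm6a) encodes a histone demethylase, and the study's title places it in the control of ETS and GATA transcription programmes.

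Members were chosen by the peak calls of the same 6 samples. Peaks of any lists with an overlap of 1 bp or more were joined into a region, and a region was kept when no knockout list and every wild-type list had a peak in it and it reached into the 1 kb on either side of an annotated end of a RefSeq gene. The absence of knockout peaks is therefore how the regions were chosen and not a result, and none of the comparisons below has a test. Lost here means only that no peak was called: the lists hold coordinates and no read counts, so depth is unknown and a weak signal in a knockout sample would not be seen. Knockout lists were shorter, with 45260, 50249 and 44576 peaks against 57405, 57917 and 57622 peaks in wild type. With each list limited to its widest 44576 peaks, the same rule gave 356 regions. Nothing says whether samples of a genotype came from separate mice.

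An ATAC-seq peak at the start of a gene marks its promoter, the stretch on which RNA polymerase assembles. Most broadly used genes have promoters rich in CpG dinucleotides that are open in nearly every cell type, whereas many lineage genes have CpG-poor promoters that open only where the factors of that lineage bind. GATA1, with partners such as LMO2, TAL1 and FOG1, opens red cell and platelet genes at sites built around the letters GATA, and KLF1 acts on many of the same red cell genes.

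The starts that lay inside lost regions carried the GATA motif more often than gene starts at large and were poor in CpG. RefSeq promoters (build GRCm38.p6, the assembly that mm10 names, 250 bases before to 50 after a start) were matched for 471 of the 587 genes with a member, and among all RefSeq promoters 88, from 83 genes, had their start inside a lost region. One of these, at Zc2hc1c, is an inner start in a region 88 bp from the start of Acyp1, and Zc2hc1c is not among the 587. The 8 that follow are examples from genes of red cells and platelets and are not typical of the 88. All but Smim1 hold the GATA motif, against 47 of all 88 starts. The starts of Tspo2 and Hbb-bt, also in lost regions, do not hold it and are not shown. The 8 are written in the direction of transcription, and capitals mark the GATA motif on either strand. It was spelled as AGATAA or AGATAG, or with a leading T as TGATAA and, last, as TGATAG. The stretches are Kel at chr6:41704276-41704575, minus strand, Ermap at chr4:119189946-119190245, minus strand, Klf1 at chr8:84901732-84902031, plus strand, and Rhag at chr17:40810899-40811198, plus strand. The others are Epor at chr9:21963527-21963826, minus strand, Gp1ba at chr11:70638872-70639171, plus strand, Gp5 at chr16:30310732-30311031, minus strand, and Smim1 at chr4:154025995-154026294, minus strand.
Kel: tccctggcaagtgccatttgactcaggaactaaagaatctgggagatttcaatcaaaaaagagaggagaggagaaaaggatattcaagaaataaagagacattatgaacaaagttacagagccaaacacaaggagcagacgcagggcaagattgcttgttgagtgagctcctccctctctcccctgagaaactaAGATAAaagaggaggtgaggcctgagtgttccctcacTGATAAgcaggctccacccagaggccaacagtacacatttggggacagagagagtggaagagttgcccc
Ermap: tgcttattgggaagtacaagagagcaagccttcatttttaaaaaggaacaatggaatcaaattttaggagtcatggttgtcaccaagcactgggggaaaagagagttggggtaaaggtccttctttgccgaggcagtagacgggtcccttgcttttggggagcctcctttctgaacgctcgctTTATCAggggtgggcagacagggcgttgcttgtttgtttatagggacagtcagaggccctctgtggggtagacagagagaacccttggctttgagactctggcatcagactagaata
Klf1: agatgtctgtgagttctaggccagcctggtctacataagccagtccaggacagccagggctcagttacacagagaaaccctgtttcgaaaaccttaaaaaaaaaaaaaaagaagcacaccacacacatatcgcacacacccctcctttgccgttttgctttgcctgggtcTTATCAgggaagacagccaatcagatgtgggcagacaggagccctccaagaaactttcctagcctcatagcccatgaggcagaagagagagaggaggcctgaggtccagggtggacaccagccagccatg
Rhag: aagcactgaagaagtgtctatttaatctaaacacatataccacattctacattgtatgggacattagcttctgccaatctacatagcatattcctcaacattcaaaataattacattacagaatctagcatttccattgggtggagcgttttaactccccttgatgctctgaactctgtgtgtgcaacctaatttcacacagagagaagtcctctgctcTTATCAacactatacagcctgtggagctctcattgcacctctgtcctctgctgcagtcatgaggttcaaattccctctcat
Epor: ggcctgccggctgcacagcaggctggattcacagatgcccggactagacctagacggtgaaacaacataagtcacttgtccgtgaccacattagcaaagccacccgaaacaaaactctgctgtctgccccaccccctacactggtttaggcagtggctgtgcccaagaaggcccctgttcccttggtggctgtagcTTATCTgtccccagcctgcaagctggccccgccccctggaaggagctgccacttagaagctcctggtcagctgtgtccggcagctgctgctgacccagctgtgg
Gp1ba: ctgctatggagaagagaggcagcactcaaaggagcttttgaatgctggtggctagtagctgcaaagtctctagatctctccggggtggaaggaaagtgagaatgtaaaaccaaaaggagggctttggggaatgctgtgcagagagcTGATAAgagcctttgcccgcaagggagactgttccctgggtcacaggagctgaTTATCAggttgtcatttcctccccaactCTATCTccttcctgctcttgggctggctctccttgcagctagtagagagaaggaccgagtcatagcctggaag
Gp5: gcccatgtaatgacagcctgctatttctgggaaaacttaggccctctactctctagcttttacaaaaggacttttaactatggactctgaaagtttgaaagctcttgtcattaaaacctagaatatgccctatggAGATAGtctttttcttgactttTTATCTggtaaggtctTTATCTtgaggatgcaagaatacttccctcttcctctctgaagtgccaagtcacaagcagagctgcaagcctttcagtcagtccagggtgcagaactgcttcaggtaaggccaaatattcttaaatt
Smim1: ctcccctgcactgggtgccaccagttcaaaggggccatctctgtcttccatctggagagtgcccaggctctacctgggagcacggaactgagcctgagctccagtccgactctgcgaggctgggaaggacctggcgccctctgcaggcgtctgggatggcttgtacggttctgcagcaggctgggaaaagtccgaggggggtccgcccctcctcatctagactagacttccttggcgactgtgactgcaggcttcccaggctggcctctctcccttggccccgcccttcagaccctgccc

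The Kel promoter holds 2 matches, which begin 56 and 19 bases before the start. Gp1ba and Gp5 hold 3 matches each, the nearest to the start being 23 and 77 bases before it. Single matches begin 67 bases before the start in Ermap, 80 in Klf1, 31 in Rhag and 54 in Epor, all 4 on the opposite strand. The Smim1 promoter, under the widest of all the lost regions, has no match. A match is a description of letters and does not show that a factor binds there.

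Among the 88 starts in lost regions, 47 had a GATA match (53.4%, 95% Wilson interval 43.1 to 63.5). In comparison, 1500 of 9323 starts in gene-end regions found in all 6 samples had one (16.1%, 15.4 to 16.8), as did 14 of 76 starts in gained gene-end regions (18.4%, 11.3 to 28.6) and 5533 of all 21263 starts (26.0%). Promoters in lost regions also had little CpG. Their median ratio of observed to expected CpG was 0.30, against 0.804 for starts in regions found in all 6 samples, 0.623 for gained regions and 0.567 over all starts. A ratio below 0.6 was found for 69 of the 88 (78.4%) and for 1785 of the 9323 (19.1%). GATA letters stood in 37.4% of all 11126 CpG-poor starts and in 13.6% of all 10137 CpG-rich ones, so the counts were also made within each class. Among CpG-poor starts, 43 of 69 in lost regions had a match (62.3%, 50.5 to 72.8), against 492 of 1785 in regions found in all 6 samples (27.6%, 25.5 to 29.7). Of CpG-poor starts with no region over them, 40.1% had a match (39.1 to 41.2). For regions of all wild-type and 1 or 2 knockout samples it was 34 of 95 (35.8%, 26.9 to 45.8), and for gained regions 8 of 31 (25.8%, 13.7 to 43.2). Within the CpG-rich class the lost regions had only 19 starts, 4 of them with a match (21.1%, 8.51 to 43.3), against 13.4% in regions found in all 6 samples. These intervals cover counting error only, and regions are not replicates of the genotype.

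The ETS letters CCGGAAGT stood in none of the 88 promoters in lost regions, which allows a share of up to 4.18% by the Wilson interval. They stood in 9.98% of promoters in regions found in all 6 samples and 5.15% of all promoters. Among CpG-poor starts of the regions found in all 6 samples the share was 5.27%. With 69 CpG-poor starts in lost regions a count of 0 allows up to 5.27% there too. Within that class a difference was thus not detectable at this number. ETS letters stood in 1.59% of all CpG-poor starts and 0.740% of those with no region over the start. None of 31 CpG-poor starts in gained regions had them, nor any of 95 in regions of all wild-type and 1 or 2 knockout samples. PU.1 letters (GAGGAAGT) were in 4.55% of the promoters in lost regions, against 3.25% in regions found in all 6 samples and 3.13% of all promoters. Letters of the KLF type (CCNCNCCC) were in 60.2% (49.8 to 69.8), against 71.0% in regions found in all 6 samples and 56.6% of all promoters. The E-boxes CAGCTG and CAGATG, of the kind that TAL1 can bind, were in 36.4% (27.1 to 46.8), against 22.2% in regions found in all 6 samples. The share over all promoters, 27.9%, lies inside that interval, as does the 32.9% of promoters with no region over the start. The AP-1 letters TGANTCA were in 12.5% (7.13 to 21.0), against 3.83% in regions found in all 6 samples, 6.99% of all promoters and 10% of those with no region over the start. For TATAAA the share was 12.5% in lost regions, 5.81% in regions found in all 6 samples and 12.6% of all promoters. For RUNX (TGTGGT) these 3 shares were 17.0%, 11.7% and 15%, for CCAAT 35.2%, 39.3% and 38.2%, and for NRF1 (GCATGCGC) 1.14%, 6.24% and 3.52%. GATAA alone, which overlaps the GATA set above, was in 53.4% of the promoters in lost regions, 14.0% of those in regions found in all 6 samples and 22.5% of all promoters.

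**Figure D1:**
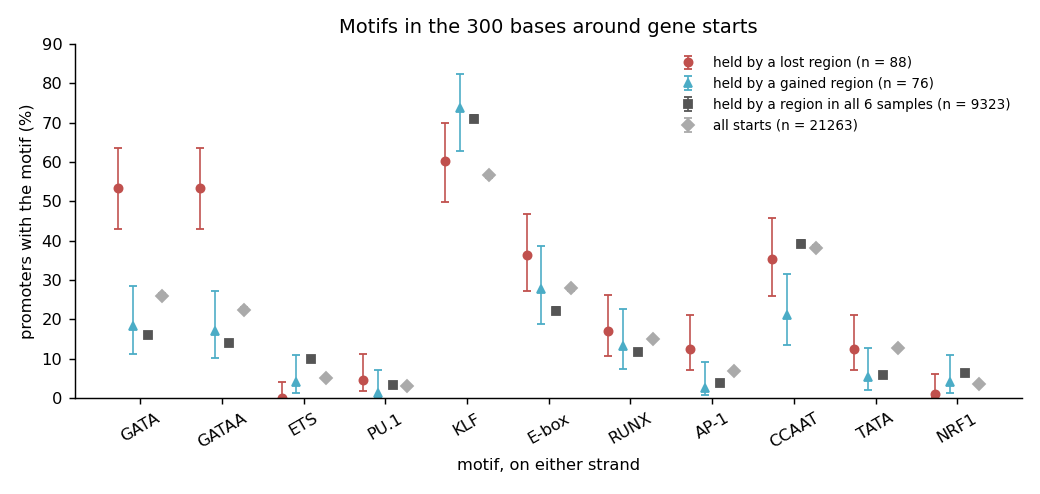
The share of promoters (vertical axis, %) that hold each of 11 motifs on either strand, for starts inside lost gene-end regions (n = 88), gained gene-end regions (n = 76), gene-end regions found in all 6 samples (n = 9323) and all starts (n = 21263); bars are 95% Wilson intervals. GATA and GATAA letters stood at 53.4% in lost regions, above the other 3 sets, and ETS letters at 0.

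A share of the members lay at genes of red cells. In all, 587 of 21887 protein-coding genes (2.68%) had a lost region at an end. In 4 lists of red cell genes, 26 of 108 genes (24.1%) had one, through 32 of the 547 regions. By list, these were 10 of 32 genes of the red cell membrane and blood groups, 7 of 28 genes of globin and haem synthesis, 7 of 30 genes of erythropoietin signalling and red cell maturation, and 2 of 18 GATA factors and their partners. Among 25 megakaryocyte and platelet genes, 4 had one. In these lists, in the order given, 29, 21, 26, 15 and 15 genes had an end region in all wild-type samples. An end region found in all 6 samples was present at 18, 17, 23, 14 and 11 of them. The 2.68% is a share of all genes, with or without a wild-type region at an end. The lists were written with earlier results of these data known, and the rule uses the same contrast, so these counts describe the members and support nothing further. In bulk samples, fewer cells of a type and less open chromatin per cell cannot be told apart.

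Membrane and blood group genes had 13 of these 32 regions. The region of Smim1, which encodes the Vel blood group antigen, lies on chromosome 4 at 154023436 to 154026555 (mm10) and had peaks of 2161, 3120 and 2842 bp in wild-type samples 1, 2 and 3. It covers the Smim1 start and comes within 89 bp of the far end of Ccdc27, and knockout peaks nearest to it were 3597 to 11249 bp away. The start of Kel, which encodes the Kell glycoprotein, lay in a region with wild-type peaks of 1091, 1099 and 2233 bp on chromosome 6 (41702899 to 41705131). A second lost region, 978 bp from the other end of Kel, had peaks of 444, 390 and 412 bp. The second region lies closer to Llcfc1, 366 bp from its far end. All 3 regions in or within 20 kb of Kel were lost, and the nearest knockout peak was 78985 bp from the second region and 96998 bp from the region at the start. Ermap, whose product carries the Scianna antigens, had peaks of 1311, 1406 and 1409 bp over its start on chromosome 4 (119189577 to 119191062).

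The Rh complex and the membrane skeleton were represented as well. Rhag, the ammonium channel of the Rh complex, had wild-type peaks of 383, 435 and 497 bp over its start on chromosome 17 (40810865 to 40811372). Rhd, the Rh antigen gene, had 2 lost regions at its start on chromosome 4, with mean wild-type widths of 392 ± 40.6 bp and 390 ± 176 bp (SD, n = 3 each). Slc4a1, the band 3 anion exchanger, had 2 lost regions at 1 end on chromosome 11, with peaks of 559, 560 and 892 bp and of 330, 893 and 676 bp. Regions of the skeleton genes Ank1 (ankyrin; 856, 654 and 740 bp) and Epb42 (protein 4.2; 796, 787 and 869 bp) were wider than 577 bp, the upper quartile of the mean wild-type widths of all members. The region of Art4, the Dombrock antigen gene, lay 866 bp from its start, and a region with a peak in all 6 samples remained in the window of that start.

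Among the globin genes, those for beta-globin had lost regions at both ends. Hbb-bs, an adult beta-globin gene on chromosome 7, had one over its start with peaks of 559, 609 and 689 bp and one over its far end with 645, 1056 and 963 bp. Its neighbour Hbb-bt had peaks of 404, 398 and 474 bp over its start and of 540, 626 and 1438 bp at 680 bp from its far end, where a region found in all 6 samples shared the window. The region of the alpha-globin gene Hba-a1 lay 402 bp from its far end on chromosome 11 (32284888 to 32285931), with peaks of 995, 1001 and 1017 bp, the smallest spread of the globin and haem regions (SD 11.4 bp). Hbb-bs with Hbb-bt, and Hba-a1 with Hba-a2, are near-identical copies, and how reads that match both were placed is not given, so their peaks are uncertain. Among haem genes, Uros (uroporphyrinogen synthase) had peaks of 726, 752 and 891 bp over its outermost start, while another region in that window had a peak in all 6 samples. Alad, which acts earlier in haem synthesis, had peaks of 321, 506 and 574 bp at 640 bp from its far end. Tspo2, a translocator protein of red cell precursors, had 1241, 1264 and 1428 bp over its start.

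**Figure D2:**
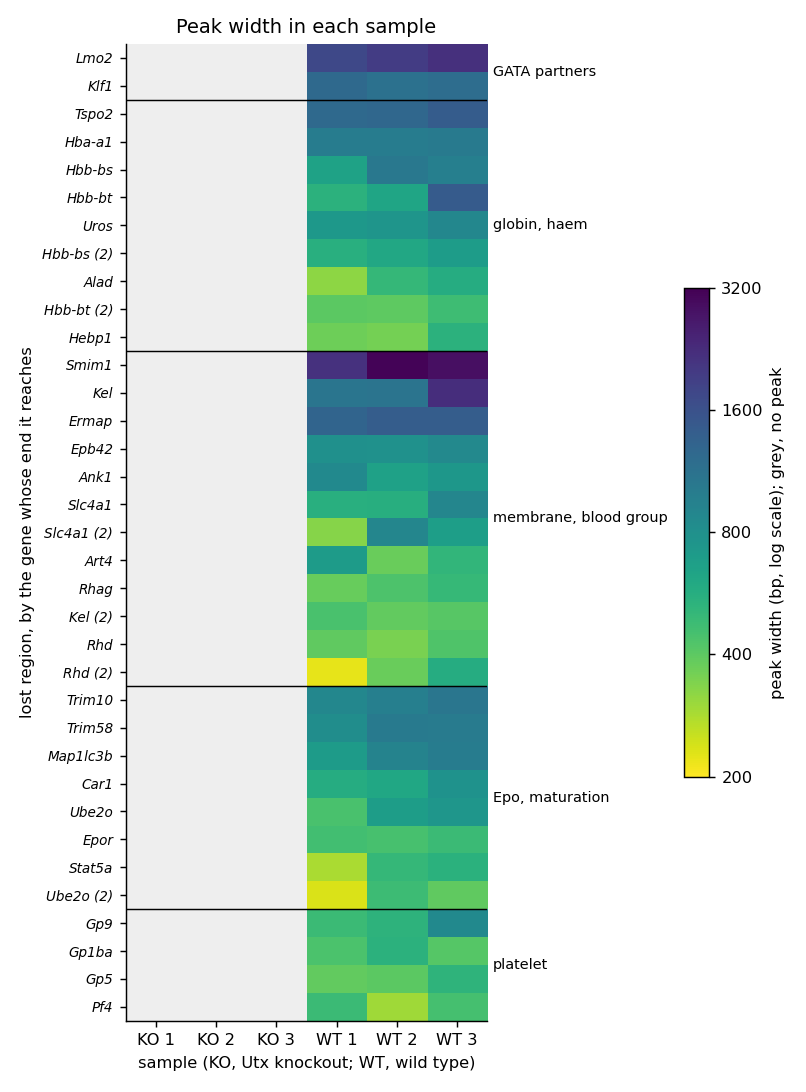
Peak width in bp (colour, log scale) in each of the 3 knockout and 3 wild-type samples for 35 lost regions at ends of red cell and platelet genes, grouped by list; 1 further region of these lists is not reported here; a number in brackets marks the second region of a gene, and grey means no peak. Knockout columns are empty because the regions were chosen so, and wild-type peaks run from 221 bp at Rhd to 3120 bp at Smim1.

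Among regulators of red cell genes, Lmo2, whose product bridges GATA1 and TAL1, had peaks of 1760, 1960 and 2178 bp over 1 end on chromosome 2, and Klf1 had 1236, 1136 and 1183 bp over its start on chromosome 8 (84900871 to 84902225). The Klf1 window also held a region found in all 6 samples, and the nearest knockout peaks lay 489 to 578 bp from the lost one. Epor, the erythropoietin receptor gene, showed the same layout, with wild-type peaks of 463, 448 and 485 bp over its start and knockout peaks 609 to 675 bp away. Around Klf1 and Epor the window of the start thus held a peak in every knockout sample, whereas no knockout sample had a peak within 1 kb of the starts of Smim1, Kel, Ermap, Rhag, Rhd, Epb42, Trim10 or Tspo2. Trim10 and Trim58, 2 ubiquitin ligases of maturing red cells, had mean wild-type widths of 978 ± 97.3 bp and 953 ± 112 bp (SD, n = 3 each). Map1lc3b, an autophagy gene, had 695, 925 and 997 bp at 720 bp from its start. The carbonic anhydrase gene Car1 had 576, 615 and 777 bp over 1 end. Ube2o, which helps clear proteins from reticulocytes, had 2 lost regions at 1 end, of which the wider (442, 682 and 748 bp) lies over the far end of Sphk1, and Stat5a had one 923 bp from its far end that lies closer to Stat3.

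Members at platelet genes had mean wild-type widths of 412 to 624 bp. Gp1ba and Gp5, subunits of the receptor for von Willebrand factor, had peaks of 440, 539 and 415 bp and of 389, 404 and 526 bp over their starts. The further subunit gene Gp9 had 483, 531 and 858 bp, and the chemokine gene Pf4 had 486, 296 and 453 bp. At Gp5, but not at the other 3 genes, knockout sample 2 had a peak in the window of the start.

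The other lists had 0 to 2 genes each with a member. Where there were any, the share was 4% to 10% of the list, against 2.68% of all protein-coding genes. These shares rest on 1 or 2 genes each. Elf3 and Elk4 were the 2 of 25 ETS factor genes with a member, with mean wild-type widths of 359 ± 22.1 bp and 434 ± 37.8 bp (SD, n = 3 each). Ezh1 and Pbrm1 were the 2 of 30 Polycomb and SWI/SNF genes, E2f4 and Myc the 2 of 20 cell cycle and growth genes, Fcnb the 1 of 25 granulocyte and monocyte genes, Hoxb4 the 1 of 24 stem and progenitor genes, and Eng the 1 of 14 stroma and endothelium genes. The E2f4 region was wide (1104, 1799 and 1565 bp) but only just inside the rule, 981 bp from an end, and the Myc region had 944, 859 and 908 bp at 296 bp from an end. The Ezh1 region lies closer to Cntnap1, and the Pbrm1 region about as near to Gnl3. Lists of 19 B lymphoid, 19 T and NK lymphoid, 12 mast cell and basophil, 20 UTX and COMPASS, and 18 housekeeping genes had none. At the 2.68% of all protein-coding genes, lists this short can hold none without differing from that share. Only 5 T and NK genes and 4 mast cell and basophil genes had an end region in all wild-type samples that could be lost. For the B lymphoid genes, 7 of 19 had a gained region at an end, and 10 had an end region found in all 6 samples. The progenitor markers Kit, Cd34, Flt3, Meis1 and Gata2 had a peak at an end in every knockout and every wild-type sample. So did Itgam and Cd5, markers of mature blood cells, and Ptprc, while Ly6g and Cd3e had none in any sample. The part of a different cell make-up in the lost regions was not tested.

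**Figure D3:**
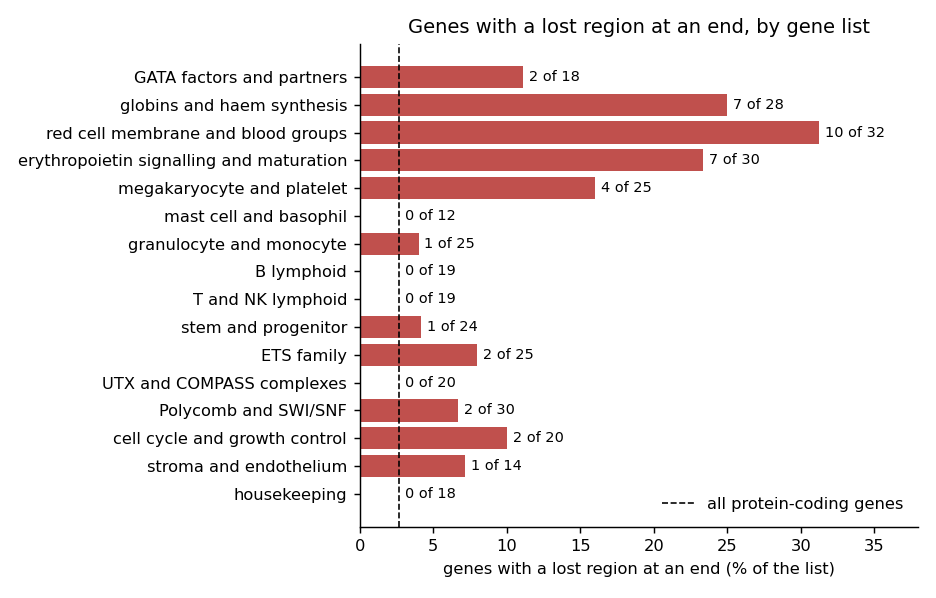
The share of genes with a lost region at an end (horizontal axis, % of the genes of a list matched to RefSeq) for 16 gene lists, with the number of genes beside each bar; the dashed line is the share of all protein-coding genes, 2.68%. Red cell lists reached 31.3%, and 5 lists had no such gene.

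Beyond the lists, the widest members lay at genes of mixed function. After Smim1 and Lmo2 came the start of Btnl10, a butyrophilin-like gene on chromosome 11 (1901, 1363 and 2157 bp), and that of Slc25a21, a mitochondrial carrier gene on chromosome 12 (1601, 1853 and 1873 bp). Next were regions at Ttll12 (mean 1754 ± 274 bp, 701 bp from the start), the formin gene Fhdc1 (1748 ± 388 bp), the sterol transporter gene Abcg4 (1728 ± 258 bp) and the kinase anchor gene Akap7 (1697 ± 229 bp; SD, n = 3 each). Paqr9, Cldn13, Rasgef1c and Fam110c, together with E2f4 and Kel above, were also among the 15 widest, with means from 1434 to 1679 bp. Akap7 and Ttll12 had knockout peaks within 306 to 475 bp of the lost region, while at Slc25a21 the nearest was 13133 bp away. The narrowest members were at S100a4, Tmem203, Flt4, Plin1 and Mybpc2, with means of 202 to 218 bp.

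For 28 genes there were 2 or more lost regions at their ends, and for the other 559 there was 1. Besides Kel, Rhd, Slc4a1, Hbb-bs, Hbb-bt and Ube2o, the 28 included Pklr, the red cell pyruvate kinase gene, with peaks of 246, 343 and 781 bp over its start and of 433, 466 and 506 bp 736 bp from its far end. Glrx5, which serves iron-sulphur cluster assembly, had 2 at its far end (677, 1277 and 1338 bp, and 366, 431 and 567 bp). Eng, the endothelial receptor endoglin, had 1 at each end (403, 438 and 760 bp over the start, and 266, 241 and 275 bp at the far end, closer to Fpgs), and so did Ttc39a (1203, 1125 and 1148 bp over the start). The others were 1700014D04Rik, 6030468B19Rik, AA986860, Eral1, Evi5, Flt4, Gbx2, Ip6k2, Khsrp, Kmt5c, Lrrc29, Med7, Nkx1-2, Ntn3, Phyhip, Rasgef1c, Samd11 and Slc22a3. Members within 10 kb of each other formed 28 pairs and no larger group.

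Most lost regions lay beside a gene end and not over it, and many lay at the far end of a gene. Only 159 of the 547 (29.1%) held the annotated end itself, against 8945 of 10650 gene-end regions found in all 6 samples (84.0%). The nearest end was a start for 199 members (36.4%) and a far end for 240 (43.9%), against 7838 (73.6%) and 656 (6.16%) of the regions found in all 6 samples. For 106 members the direction of the nearest gene was not used here, and 2 members held ends of both kinds. Beside a start, 47 of 111 lay outside the gene and 64 inside it, and beside a far end 120 of 203 lay outside and 83 inside.

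Set against what wild type had, the lost share differed by position. Of 11857 gene-end regions in all 3 wild-type samples, 547 (4.61%, 4.25 to 5.01) were lost, and lost regions were 3.86% of all 14178 gene-end regions. Away from gene ends, 7495 of 34499 wild-type regions were lost (21.7%, 21.3 to 22.2). Regions that held a start were lost in 88 of 7194 cases (1.22%, 0.994 to 1.5), and regions beside a start in 111 of 1144 (9.70%, 8.12 to 11.6). These 88 are regions over the outermost start of a gene. They are not the same set as the 88 promoter starts above, which include inner starts and lay in 82 regions. At far ends the shares were 37 of 256 (14.5%, 10.7 to 19.3) for regions that held the end and 203 of 857 (23.7%, 21.0 to 26.6) for those beside it. By chromosome the lost share at gene ends ran from 2.20% on chromosome 16 to 6.50% on chromosome 7, with 2.78% on X.

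**Figure D4:**
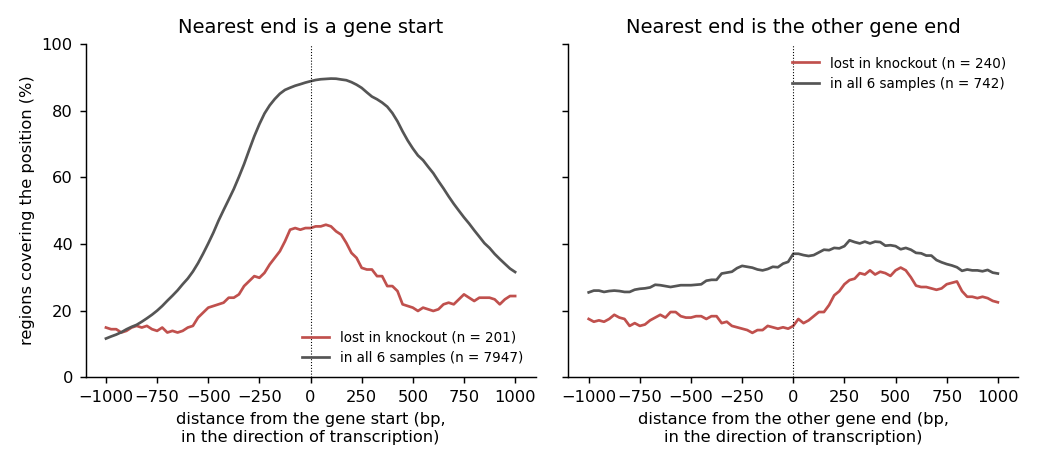
The share of regions (vertical axis, %) that cover each position within 1000 bp of the nearest gene start (left) or the nearest other gene end (right), in the direction of transcription, for lost regions (201 and 240) and regions found in all 6 samples (7947 and 742); genes whose direction was not used are left out, and a region over ends of both kinds is counted once. At the start itself, 44.8% of lost regions and 88.8% of regions found in all 6 samples covered the position, and at the other gene end 15.4% and 37.1% did.

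Lost regions were narrow. Lost gene-end regions had a median wild-type peak width of 350, 390 and 444 bp in wild-type samples 1, 2 and 3, against 985, 974 and 1018 bp for gene-end regions found in all 6 samples. Knockout medians for the regions found in all 6 samples were 920, 943 and 904 bp, below each wild-type median of 974 to 1018 bp. Over members, the mean width of the 3 wild-type peaks ran from 202 to 2708 bp with a median of 401 bp, and the log2 widths of 2 wild-type samples correlated across members with r of 0.827 to 0.855 (547 regions, which share their libraries). Among gene-end regions of all 3 wild-type samples, 134 of 486 under 300 bp were lost (27.6%) and 71 of 7065 of 800 bp or more (1.0%). Within each width class the share was lower for regions that held a gene end than for those away from gene ends. It was 5.15% (3.86 to 6.84) against 20.9% (20.3 to 21.6) at 300 to 499 bp, and 0.636% (0.470 to 0.862) against 10.2% (9.29 to 11.1) at 800 bp or more. Widths and losses come from the same peak calls, and the part of width in the choice of members was not tested.

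**Figure D5:**
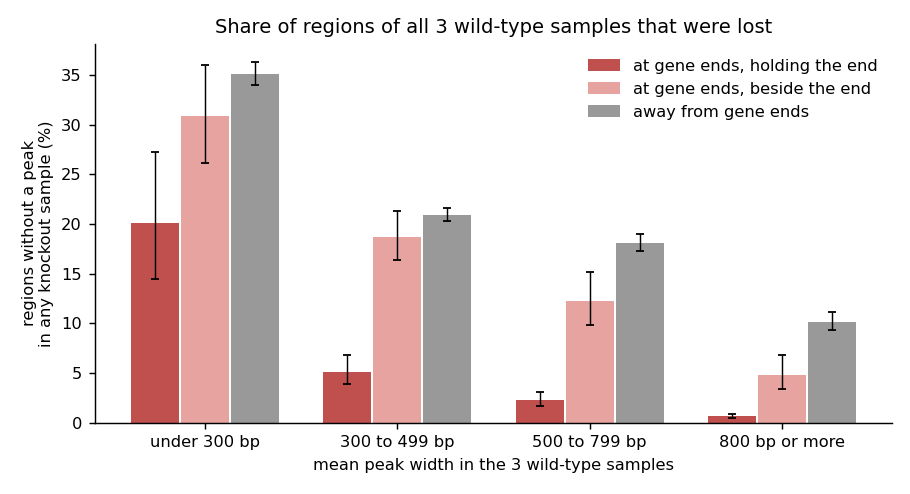
The share of regions with a peak in all 3 wild-type samples that had none in any knockout sample (vertical axis, %), by mean wild-type peak width, for regions holding a gene end, beside one and away from gene ends; bars are 95% Wilson intervals for counting error only. In each of the 4 width classes the share was lowest where the region held the end, down to 0.636% at 800 bp or more.

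Many windows around gene ends were left without any knockout peak. A lost region lay at 610 ends of genes, and at 471 of them (77.2%) no knockout sample had a peak within 1 kb. For starts the figure was 141 of 218 (64.7%), for far ends 233 of 274 (85.0%). At 65 of the 218 starts (29.8%) and 31 of the 274 far ends (11.3%) a region found in all 6 samples shared the window. None of the 610 ends had a gained region beside the lost one. Gained regions were only 260 of all 14178 gene-end regions, so their absence here says little about the members. Measured from the lost region, another peak lay within 1 kb for 20.1%, 21.9% and 19.0% of members in knockout samples 1, 2 and 3, and for 34.2%, 32.2% and 36.2% in wild-type samples 1, 2 and 3. The same share for gene-end regions found in all 6 samples was 14.5% to 16.0% in knockout and 18.3% to 20.1% in wild type.

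Genes with a member also had lost regions elsewhere. In or within 20 kb of the 587 genes lay 3435 regions that are not members, of which 494 (14.4%) were lost, 70 (2.04%) gained and 1466 (42.7%) found in all 6 samples. Near genes without a member, 5603 of 58116 regions (9.64%) were lost and 2446 (4.21%) gained. At 294 of the 587 genes there was at least 1 further lost region. The matching number was not counted for genes without a member, so it cannot be read as particular to the 587. Counting all regions within 20 kb, Mical3 had 10 lost of 32, Cyth3 9 of 20, Dapk2 8 of 16 and Ell2 7 of 17. These 4 were named after their counts were seen. The same samples gave both counts, so they are not independent.

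The border of the rule falls among lost regions on both sides. The members farthest from a gene end were at Aldh3b1 (998 bp), Prss50 (995 bp), Chd8 (993 bp), Samd11 (992 bp) and Crtc1 (990 bp), with mean wild-type widths of 266 to 802 bp. Just outside were lost regions at Cbx6 (1003 bp), Liph (1004 bp), Septin6 (1005 bp), Slc43a1 (1007 bp) and Tnk1 (1012 bp), with means of 252 to 549 bp. A further 434 lost regions had their nearest gene end between 1 and 2 kb away. On the side of the peak calls, 271 gene-end regions in all 3 wild-type samples had a peak in exactly 1 knockout sample and were not members. Of these, 64 had it in knockout sample 1, 166 in sample 2, which has the longest knockout list, and 41 in sample 3. Their knockout peaks had median widths of 260, 267 and 229 bp in samples 1, 2 and 3, against median mean wild-type widths of 335, 341 and 300 bp in the same regions.

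Kdm6a itself had 1 region at its ends, with a peak in all 6 samples. Peaks outside the deleted part do not check the genotype, and the deleted part is not given in the sources used here.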

How the data were processed

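The authors deposited 1 list of peaks per sample, as chromosome, start and end in bp, with no score or read count. Per the submitters' processing notes, the peak caller was MACS2 (no version stated) and coordinates follow mm10. How reads were aligned, filtered, shifted or deduplicated is not given in the sources used here, and depth is unknown. Regions, gene ends and windows were computed as the report describes, with Python 3.11.15, numpy 2.4.6 and pandas 2.3.3, from the 21887 protein-coding genes of RefSeq GRCm38.p6. Direction was known for 17492 genes with an entry in the promoter table. Overlap of a region with peaks gave presence in a sample, and the summed width of those peaks gave its width. Motifs were searched on both strands of 21263 promoters of 300 bases. Shares have 95% Wilson intervals (scipy 1.17.1).

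The members and the 16 lists (361 entries, of which Ahsp and Tpsab1 were not matched) were chosen with earlier results of these data known. Genes are named when they are among the 15 widest or 5 narrowest members, belong to a list, have 2 or more members, or lie within 5 regions of the border. Region building was tested on simulated lists with known losses. Alternatives were each sample left out, other peak sets, other definitions of a shared region, other windows and autosomes alone. One promoter per gene was added after seeing the data. A few named genes are counted in totals but not reported here.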

Additional observations from a re-analysis of the deposited data

How the results depend on the processing

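Leaving out each sample in turn, which relaxes the rule, gave 589 to 715 lost regions and 628 to 760 genes, a lost share of 4.97% to 6.03%, a median region width of 397 to 480 bp (489 bp with all samples), 26.3% to 29.6% of members over the end itself, 23.1% to 25% with a knockout peak within 1 kb (23.6% with all samples), and 26 to 30 red cell genes. With each list limited to as many peaks as the shortest one, keeping the widest, there were 356 lost regions, a share of 3.23%, 376 genes (354 of them shared with the 587), a median of 649 bp and 35.7% over the end. All 26 red cell genes were among them. With the widest 50% of peaks the values were 707 bp, 48.7% over the end and 15.7% with a knockout peak within 1 kb. Here 199 of 461 genes were shared, and 21 of the 26 red cell genes were kept, without Alad, Hebp1, Rhag, Rhd and Stat5a. Where peaks had to cover 50% of the region, the share was 6.62%, the median 610 bp and 41.1% over the end. With 500 bp windows around peak centres the share was 5.11%, with 27.7% near a knockout peak. The median there was 554 bp, but this setting makes every peak 500 bp wide. That median therefore reflects the setting, although it is counted below as moved. Where 2 of 3 wild-type samples sufficed and 1 knockout sample was allowed, there were 1290 regions, 1361 genes, a share of 10.2% and a median of 389 bp. A 500 bp window at gene ends gave 358 regions, 384 genes, 3.37%, 44.4% over the end and 16.5% near a knockout peak, with 20 of the 26 red cell genes kept, without Alad, Art4, Hebp1, Map1lc3b, Stat5a and Trim58, and a 2.5 kb window gave 1176 regions, 1286 genes, 7.76%, 13.5% over the end and 42 red cell genes. Autosomes alone moved none of these values beyond their error. The share of ETS letters in lost promoters, which differed by -5.15 percentage points from all promoters, differed by -9.98 points from regions found in all 6 samples. For KLF letters the difference was 3.65 points against all promoters and -10.8 points against regions found in all 6 samples, so it has no settled direction. Of the values for the main results, 37 moved and 65 did not. Of the values for single lists and other motifs, 40 moved and 202 did not. No cause of these shifts was tested. No paired analysis was possible because the results come from no test and the sample numbers are not said to pair samples.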
